A study of Mus musculus with 162 samples.

Results

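The 10 transcripts described here report on the state of microglia and astrocytes in the spinal cord of mice with MC903-induced dermatitis. They are 6 genes of microglia (Aif1, Cx3cr1, Tmem119, P2ry12, Trem2 and Cd68) and 4 genes of astrocytes and their reactive states (Gfap, Vim, C4b and Aqp4). They were picked by symbol as markers of glial reactivity, with earlier results of these data known, so their counts beside those of all genes are descriptive. All 10 were among the 46078 genes listed in each library. RNA-seq was performed on skin, trigeminal ganglia (TG) and spinal cord in 162 libraries, of which the 27 of spinal cord carry the comparisons here and 56 of TG serve as reference. Every mouse was an adult male on the C57BL/6 strain, treated once per day with 0.2 mM MC903, a vitamin D analog that produces an eczema-like rash, or with ethanol, the vehicle. The cord was taken at day 8 from wild-type mice treated on the rostral back, which left 5 ethanol and 4 MC903 libraries from uninjected mice, 2 and 2 from mice injected with PBS, and 6 and 8 from mice injected with 250 µg of the antibody aGr1, which depletes neutrophils and can bind other Gr1-bearing myeloid cells. The TG, treated through the cheek, came from uninjected wild-type mice at days 1, 2, 5 and 8, from PBS- and aGr1-injected wild-type mice at day 8, and from uninjected TSLPR KO mice, which lack the TSLP receptor gene Crlf2, at days 8 and 12. The wild-type day 12 libraries were not used here. The labels do not say whether each library was 1 mouse, so the tests measure the spread between libraries.

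Microglia are the resident macrophages of the central nervous system. In the undisturbed state they carry a surveillance set of receptors that includes the fractalkine receptor Cx3cr1 and the nucleotide receptor P2ry12, and on activation they typically lower that set and raise phagocytic and lysosomal genes. Astrocytes clear water, ions and transmitters through proteins such as the water channel Aqp4, and after injury they raise intermediate filaments such as Gfap and Vim together with complement and acute-phase genes. In bulk samples such as these, fewer cells of a type and less RNA per cell cannot be told apart.

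The tissue matched its label. In the 27 cord libraries, in units of counts per 1000000 (cpm), the neuronal gene Snap25 stood at 1356 to 2534 cpm and the myelin gene Mog at 144.9 to 397.2 cpm, whereas the sensory neuron channel Scn10a was at most 0.352 cpm. Counts on genes ran from 21595429 to 50591655 per cord library and from 15931871 to 62105901 per TG library. The share of reads on no gene was 9.42% to 14.3% in the 9 uninjected cords and 16.7% to 21.5% in the 18 injected cords, and injection and library handling cannot be told apart. Between treatments this share overlapped but was not equal, at 9.42% to 12.7% (median 10.4%) with ethanol and 11.6% to 14.3% (median 12.5%) with MC903 in uninjected mice, and at 16.7% to 19.04% (median 18.5%) and 18.4% to 20.3% (median 19.8%) in aGr1 mice. In PBS mice it was 20.9% to 21.5% and 19.7% to 21.5%. Its part in the MC903 effects was not tested. Ethanol replicate 1 of the uninjected cords stood apart from its group for Aif1, Trem2 and Gfap, and results that rest on it are given with and without it.

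Promoters are shown as sequence context for the genes, and their part in the MC903 effects was not tested. The last 100 bases before the annotated start are printed 5′ to 3′ on the gene's strand for 3 of the genes (RefSeq starts, GRCm38.p6), with GAGGAA or its reverse complement TTCCTC in capitals, a short purine-rich motif of the kind bound by ETS-family factors such as the myeloid factor PU.1.
Aif1, chr17:35176053-35176152, minus strand: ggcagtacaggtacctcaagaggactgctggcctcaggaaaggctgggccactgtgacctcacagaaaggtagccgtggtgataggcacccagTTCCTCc
Trem2, chr17:48346301-48346400, plus strand: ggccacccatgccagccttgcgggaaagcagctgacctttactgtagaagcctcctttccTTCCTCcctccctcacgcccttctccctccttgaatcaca
Gfap, chr11:102897201-102897300, minus strand: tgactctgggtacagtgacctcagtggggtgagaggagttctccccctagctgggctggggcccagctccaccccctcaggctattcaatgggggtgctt
The match begins 7 bases before the start in Aif1, where another annotated transcript already covers the last 16 bases of the window, and 40 bases before it in Trem2. Gfap, printed as the astrocyte counterpart, had no match. Over the 250 bases before the start, 4 of the 7 genes in the table held the motif on either strand (Aif1, Trem2, Cd68 and Vim), against 23.3% of all 32851 promoters. Of the genes that held the motif, Aif1 and Trem2 fell with MC903 in uninjected cord, and Cd68 and Vim did not pass the test there. Cx3cr1, P2ry12 and Gfap did not hold these letters and also fell. Whether motif and effect are related was not tested. All 100 bases before the start lay in exons of the gene itself for Cx3cr1 and Vim. For P2ry12 they lay in exons of Med12l. Tmem119, C4b and Aqp4 had no promoter sequence to search. A match is a run of letters, not a bound site.

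Levels in ethanol-treated mice without injection give the starting point, and they are compared between genes per kilobase of exon. In the cord, Gfap was the most abundant of the 10 at 358.5 cpm per kb (mean, n = 5), followed by Aqp4 at 127.7 cpm per kb. Vim (20.99), C4b (15.51), P2ry12 (10.80) and Cx3cr1 (10.46 cpm per kb) formed a middle group, of which P2ry12 and Cx3cr1 lay closer together than their libraries varied. Tmem119 stood at 5.58, Trem2 at 2.07, Cd68 at 1.95 and Aif1 at 1.52 cpm per kb, so the low end of the scale was held by microglial genes.

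In the day 8 TG of uninjected ethanol mice, where satellite glia and resident macrophages take the place of astrocytes and microglia, 8 of the 10 genes were lower than in cord and Vim was higher. The fitted difference of cord over TG was 5.30 ± 0.733 (SE) on the log2 scale for Gfap, 4.83 ± 0.260 for Aqp4 and 3.67 ± 0.335 for Tmem119 (edgeR's quasi-likelihood test with Benjamini-Hochberg adjustment, adjusted p = 4.3e-05, 2.7e-09 and 6.6e-07). Cx3cr1, Trem2, P2ry12, Aif1 and Cd68 followed at 2.68, 2.48, 2.30, 1.80 and 0.80. Vim differed by -2.06 ± 0.133 (adjusted p = 1.6e-08), and C4b, at 0.23 ± 0.125, did not pass the test. Tissues differ in most respects, and over all genes 19.2% were higher and 20.0% lower in cord. Tissue and library handling cannot be told apart in this comparison. The call for Cd68 was lost when TG cohort A replicate 1 or cord replicate 2 or 3 was left out, and C4b passed, as higher in cord, without TG cohort B replicate 3.

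**Figure D1:**
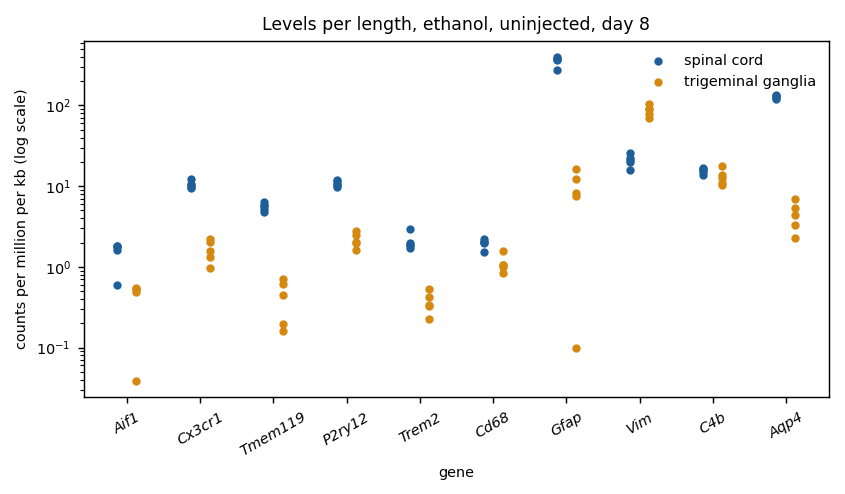
Level in cpm per kilobase of exon on a log axis for each of the 10 genes, with 1 point per library, in day 8 spinal cord (5 libraries) and trigeminal ganglia (5 libraries) of uninjected mice treated with ethanol. Gfap and Aqp4 are the highest in cord, and Vim is the only gene whose TG libraries all lie above the cord libraries.

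The first question was whether MC903 moved these genes in the cord of uninjected mice. It did so in 1 direction: 7 of the 10 were lower in MC903-treated mice at an adjusted p under 0.05, which 7.14% of all 25585 tested genes were, and 0 of 10 were higher, against 5.05% of all genes. The median log2 fold change of the 10 was -1.08, beside 0.01 for all genes tested. The libraries of the treatments did not overlap for 6 of the 10, each lower in every MC903 library, as was true of 8.41% of all genes.

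Among the microglial genes, 5 of 6 fell, including both receptors of the surveillance set. P2ry12, a receptor through which microglial processes sense ADP (chr3:59216272-59262871, minus strand), was at 26.8, 30.3, 29.1, 24.8 and 26.5 cpm in the 5 ethanol libraries. In the 4 MC903 libraries it was at 8.70, 10.1, 12.7 and 6.62 cpm, all below the lowest ethanol library. It was 2.90-fold lower (log2 fold change -1.54 ± 0.150, edgeR's quasi-likelihood test with Benjamini-Hochberg adjustment, adjusted p = 1.9e-05). The gene lies inside Med12l, which is on the opposite strand and shares exon bases with it, and the strand setting of the counting is not given in the sources used here.

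Cx3cr1, the receptor for neuron-derived fractalkine (chr9:119901616-120069879, minus strand), was at 54.5, 48.2, 46.1, 42.2 and 44.5 cpm with ethanol. With MC903 it was at 16.5, 17.7, 24.7 and 5.92 cpm. The MC903 libraries again lay below every ethanol library, by 2.95-fold in the fit (log2 fold change -1.56 ± 0.269, adjusted p = 0.00181 by edgeR's quasi-likelihood test). An antisense transcript, Gm33858, overlaps an exon of Cx3cr1, and without the strand setting it is not known how reads there were counted. Aif1, which encodes the calcium-binding protein Iba1 that is widely used to stain microglia (chr17:35170991-35176068, minus strand), had the largest drop but also the lowest counts. It was at 0.910, 2.69, 2.49, 2.78 and 2.79 cpm with ethanol and at 0.414, 0.652, 0.887 and 0.095 cpm with MC903, the last of which is 3 counts. The log2 fold change was -2.17 ± 0.441 (adjusted p = 0.00548 by edgeR's quasi-likelihood test), and -2.35 (adjusted p = 1.6e-04) without ethanol replicate 1, the library at 0.910 cpm.

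Tmem119, a membrane protein that sets microglia apart from other macrophages (chr5:113793729-113800516, minus strand), was at 11.1, 13.5, 14.8, 12.9 and 12.2 cpm with ethanol and at 6.29, 7.41, 7.26 and 3.10 cpm with MC903. The groups did not overlap, and the gene was 2.16-fold lower (log2 fold change -1.11 ± 0.192, adjusted p = 0.00187 by edgeR's quasi-likelihood test). Trem2, the lipid-sensing receptor needed for microglia to enter their disease-associated state (chr17:48346401-48354147, plus strand), was at 14.6, 9.17, 9.75, 8.44 and 9.25 cpm with ethanol and at 4.89, 4.96, 5.68 and 4.50 cpm with MC903. It was lower in every MC903 library, 2.08-fold in the fit (log2 fold change -1.05 ± 0.192, adjusted p = 0.00262 by edgeR's quasi-likelihood test), and the log2 fold change was -0.84 without ethanol replicate 1.

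Cd68, a lysosomal glycoprotein that rises in phagocytic cells (chr11:69664213-69666153, minus strand), did not follow. Its ethanol libraries were at 1.91, 2.78, 2.56, 2.54 and 2.46 cpm and its MC903 libraries at 2.38, 2.12, 2.27 and 1.43 cpm, so the groups overlapped. The log2 fold change was -0.26 (95% interval -0.67 to 0.15, adjusted p = 0.439 by edgeR's quasi-likelihood test).

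The summed level of the 6 microglial genes was 93.7 to 110 cpm in the ethanol libraries and 21.7 to 53.5 cpm in the MC903 libraries. MC903 replicate 4 held the lowest value of its group for 6 of the 6, and replicate 3 the highest for 4 of them. Without replicate 4, the log2 fold changes of Aif1, Cx3cr1, Tmem119, P2ry12 and Trem2 were -1.86, -1.30, -0.91, -1.42 and -1.03, and each still passed the test.

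The astrocyte genes divided. Aqp4, the water channel of astrocyte endfeet (chr18:15389496-15410982, minus strand), was at 826.7, 805.8, 767.5, 748.8 and 831.9 cpm with ethanol and at 358.3, 366.8, 400.4 and 358.9 cpm with MC903. The libraries of each group were tight and far apart, and the gene was 2.15-fold lower (log2 fold change -1.11 ± 0.0805, adjusted p = 1.3e-06 by edgeR's quasi-likelihood test). Gfap, the intermediate filament by which reactive astrocytes are usually recognized (chr11:102887336-102900912, minus strand), moved the same way by less. It was at 1159, 1592, 1680, 1543 and 1588 cpm with ethanol and at 1182, 1100, 1114 and 1262 cpm with MC903, so that ethanol replicate 1 sat among the MC903 libraries and the other 4 above them. Gfap was 1.29-fold lower (log2 fold change -0.37 ± 0.0907, adjusted p = 0.0165 by edgeR's quasi-likelihood test), but the call was lost without MC903 replicate 1 or 2 or ethanol replicate 3 (adjusted p = 0.0555, 0.075 and 0.0601).

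Neither of the other astrocyte genes passed the test. Vim, a second intermediate filament shared with endothelial and meningeal cells (chr2:13573927-13582826, plus strand), was at 74.3, 105.4, 122.5, 95.5 and 100.0 cpm with ethanol and at 84.9, 78.2, 84.9 and 84.5 cpm with MC903. Its log2 fold change was -0.26 ± 0.103 (adjusted p = 0.130), and it passed only without ethanol replicate 1 (-0.32, adjusted p = 0.0137 by edgeR's quasi-likelihood test). C4b, a complement component raised in reactive astrocytes (chr17:34728380-34743882, minus strand), was the only gene of the 10 with a fitted value above 0. It was at 78.99, 93.3, 89.2, 95.6 and 84.5 cpm with ethanol and at 108.5, 103.5, 88.8 and 95.3 cpm with MC903, a log2 fold change of 0.16 (95% interval 0.01 to 0.32, adjusted p = 0.178 by edgeR's quasi-likelihood test). Reads of C4b and its near-identical neighbor C4a may have been split by the counting, and C4a itself was at 9.71 to 18.8 cpm with ethanol and 16.1 to 20.1 cpm with MC903.

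**Figure D2:**
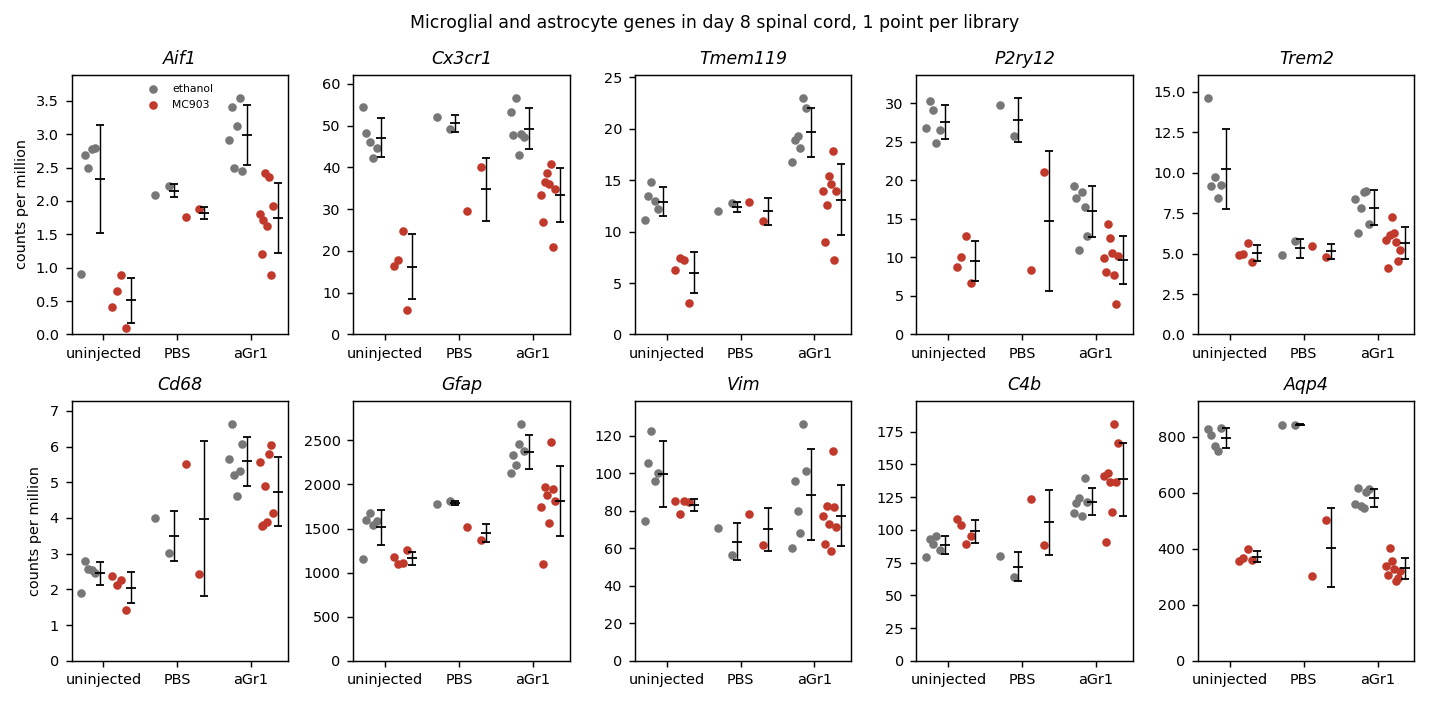
Level in cpm of the 10 genes in day 8 spinal cord, with 1 point per library (ethanol in gray, MC903 in red) for uninjected, PBS-injected and aGr1-injected mice, and the mean ± SD as a bar beside each group. In uninjected mice every MC903 library lies below every ethanol library for Aif1, Cx3cr1, Tmem119, P2ry12, Trem2 and Aqp4.

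Mice injected with aGr1 give a second set of libraries that shares none with the first. The same 7 genes were lower with MC903 (7 of 10, against 6.79% of all 27649 genes tested) and 0 of 10 were higher (4.54% of all genes). The libraries did not overlap for 3 of the 10, each lower with MC903, as for 2.64% of all genes. The median log2 fold change of the 10 was -0.52, beside 0.01 over all genes.

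Aqp4 was the clearest. It ran from 546.4 to 618.7 cpm with a median of 580 cpm in the 6 ethanol libraries and from 285.3 to 404.6 cpm with a median of 325 cpm in the 8 MC903 libraries. It was 1.77-fold lower (log2 fold change -0.82 ± 0.0669, adjusted p = 3.0e-07 by edgeR's quasi-likelihood test). Gfap overlapped, with 2134 to 2681 cpm and a median of 2359 against 1093 to 2482 cpm and a median of 1849, a log2 fold change of -0.39 ± 0.111 (adjusted p = 0.0267 by edgeR's quasi-likelihood test). The call for Gfap was lost without MC903 replicate 5 or ethanol replicate 4 or 5 (adjusted p = 0.0546, 0.0528 and 0.0673).

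Of the microglial genes, Cx3cr1 and Aif1 separated the groups. Cx3cr1 ran from 43.05 to 56.5 cpm, median 47.8, with ethanol and from 20.99 to 40.7 cpm, median 35.4, with MC903 (log2 fold change -0.56 ± 0.107, adjusted p = 0.00167 by edgeR's quasi-likelihood test). Aif1 ran from 2.45 to 3.54 cpm, median 3.01, and from 0.897 to 2.42 cpm, median 1.75 (log2 fold change -0.78 ± 0.168, adjusted p = 0.00447 by the same test). For both genes all 8 MC903 libraries lay below the lowest ethanol library.

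The others overlapped. Tmem119 was at 16.8 to 22.98 cpm, median 19.1, against 7.22 to 17.9 cpm, median 13.96 (log2 fold change -0.60 ± 0.140, adjusted p = 0.00853 by edgeR's quasi-likelihood test). P2ry12 was at 10.9 to 19.3 cpm, median 17.1, against 3.98 to 14.4 cpm, median 10 (log2 fold change -0.72 ± 0.195, adjusted p = 0.020 by the same test, and 0.0521 without ethanol replicate 1). Trem2 was at 6.26 to 8.86 cpm, median 8.10, against 4.10 to 7.23 cpm, median 5.79 (log2 fold change -0.48 ± 0.111, adjusted p = 0.00766 by the same test). These 3 genes were lower by group and not library by library.

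Cd68, Vim and C4b did not pass the test here either. Cd68 was at 4.63 to 6.62 cpm, median 5.49, against 3.77 to 6.05 cpm, median 4.51 (log2 fold change -0.24, 95% interval -0.50 to 0.01, adjusted p = 0.222 by edgeR's quasi-likelihood test). Vim was at 59.9 to 125.9 cpm, median 87.7, against 58.7 to 111.5 cpm, median 75.03 (-0.19, interval -0.49 to 0.10). C4b was at 110.3 to 139.6 cpm, median 120.8, against 91.1 to 180.5 cpm, median 139 (0.19, interval -0.03 to 0.40), and it passed the test, as higher, without MC903 replicate 2 (adjusted p = 0.0442 by edgeR's quasi-likelihood test). MC903 replicates 2 and 7 each held the lowest value of the group for 4 of the 10 genes, and replicate 6 the highest for 5.

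**Figure D3:**
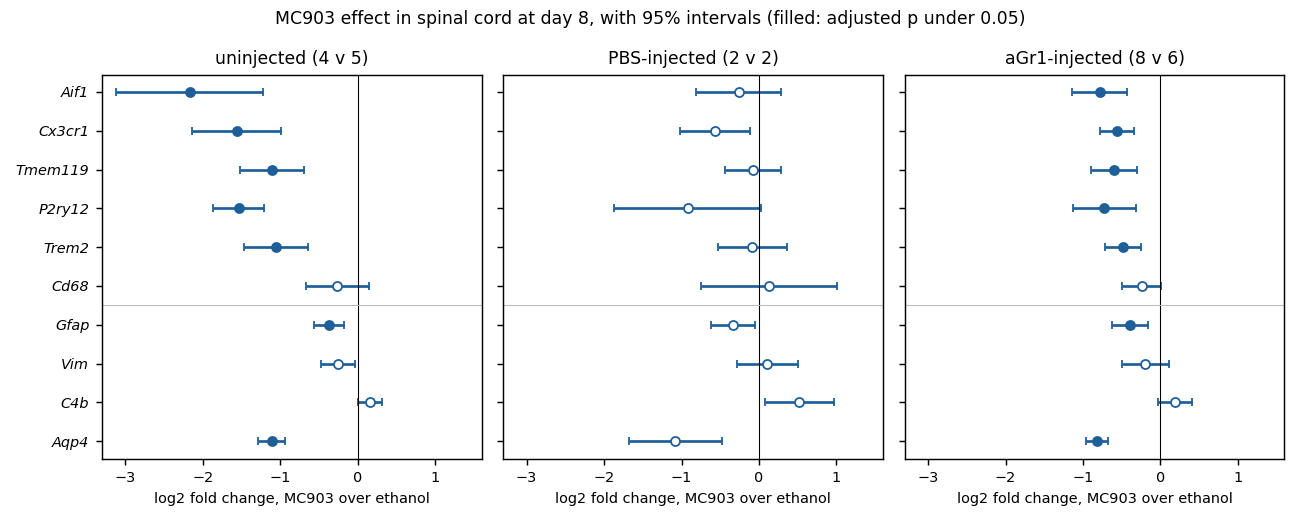
Log2 fold change of MC903 over ethanol with its 95% interval for each gene in the cord of uninjected, PBS-injected and aGr1-injected mice, with the microglial genes above the gray line and the astrocyte genes below it. Filled points passed an adjusted p of 0.05, which 7 genes did in uninjected and in aGr1-injected mice and none did in PBS-injected mice.

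PBS-injected mice, the vehicle controls of the antibody, were measured in 2 libraries per treatment. No member passed the test (0 of 10), nor did any of the 24573 genes (0.0% of them). At an unadjusted p under 0.05 edgeR's quasi-likelihood test counted 4 of the 10, namely Gfap, Aqp4, Cx3cr1 and C4b, beside 6.39% of all genes, and DESeq2 called 1, Aqp4. All MC903 libraries lay below all ethanol libraries for 5 of the 10, against 17.7% of all genes, a share that is high because 2 libraries separate from 2 often.

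Aqp4 was at 844.2 and 842.9 cpm with ethanol and at 303.5 and 503.9 cpm with MC903, a log2 fold change of -1.08 ± 0.252 (adjusted p = 0.477 by edgeR's quasi-likelihood test). P2ry12 was at 29.8 and 25.8 cpm against 8.34 and 21.1 cpm (-0.92, 95% interval -1.88 to 0.03), and Cx3cr1 at 51.99 and 49.15 cpm against 29.4 and 40.1 cpm (-0.56, interval -1.01 to -0.11). In these 3 genes MC903 replicate 1 was the farther from ethanol. Gfap was at 1774 and 1807 cpm against 1517 and 1374 cpm (-0.34), and Aif1 at 2.08 and 2.23 against 1.76 and 1.89 cpm (-0.27).

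Tmem119 and Trem2 had fitted values near 0 in these libraries, with intervals that reach to both sides. Tmem119 was at 12.02 and 12.77 cpm with ethanol and 12.9 and 11.1 cpm with MC903 (log2 fold change -0.08, 95% interval -0.44 to 0.28), and Trem2 at 4.90 and 5.75 against 5.48 and 4.79 cpm (-0.09, interval -0.54 to 0.37). Cd68 was at 3.99 and 3.01 against 5.52 and 2.44 cpm, and Vim at 70.5 and 56.5 against 78.2 and 61.9 cpm, both with overlap. C4b, at 79.9 and 63.9 cpm with ethanol and 123.5 and 88.2 cpm with MC903, had both MC903 libraries above both ethanol libraries. Without MC903 replicate 2, 6 of the 10 passed the test, beside 25.6% of all genes. Of these, Aqp4, Cx3cr1, P2ry12 and Gfap were lower and C4b and Cd68 higher. Without replicate 1 only Aqp4 did, beside 2.43% of all genes. Both fits have 1 MC903 library, which is assumed to vary as the ethanol libraries do.

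Whether aGr1 altered the MC903 effect was tested as the difference between the aGr1 and the uninjected fold changes. No member passed (0 of 10, beside 0.532% of all 28747 genes), although edgeR's quasi-likelihood test counted 5 at an unadjusted p under 0.05, as for 3730 of all 28747 genes, and DESeq2 called 1, Aif1. The drop was smaller with aGr1 by 1.34 (95% interval 0.48 to 2.2) on the log2 scale for Aif1 (adjusted p = 0.150), by 0.96 (0.41 to 1.52) for Cx3cr1 (adjusted p = 0.104 by edgeR's quasi-likelihood test) and by 0.78 (0.19 to 1.37) for P2ry12 (adjusted p = 0.227). For Trem2 the difference was 0.54 (0.10 to 0.99), for Tmem119 0.48 (-0.03 to 0.98) and for Aqp4 0.25 (0.02 to 0.48). The remaining 4 genes lay between -0.06 and 0.03.

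These differences depend on single libraries and on the reference. Aif1 passed without MC903 replicate 3 or ethanol replicate 1 of the uninjected mice (adjusted p = 0.0498 and 0.0422), and Cx3cr1 without MC903 replicate 7 of the aGr1 mice or MC903 replicate 3 of the uninjected mice (adjusted p = 0.0132 without the latter). With PBS-injected mice, the study's own vehicle control, in place of uninjected mice, the difference was -0.53 for Aif1, -0.01 for Cx3cr1, -0.52 for Tmem119 and -0.40 for Trem2, so the sign turned for these 4.

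The ethanol mice alone show how far the injected groups lay apart without MC903. Compared with PBS, aGr1 mice on ethanol had higher Tmem119, Trem2, Cd68, Gfap and C4b and lower P2ry12 and Aqp4 (7 of 10 called), where 15.2% of all 26240 genes were called higher and 14.6% lower. C4b differed by 0.68 ± 0.0924 on the log2 scale (adjusted p = 1.6e-04 by edgeR's quasi-likelihood test), Aqp4 by -0.61 ± 0.0592 (adjusted p = 1.9e-05) and P2ry12 by -0.87 ± 0.167 (adjusted p = 0.00156). Other cells' genes moved as well, with 5 of 10 neutrophil genes higher in the aGr1 mice (median of the 10, 1.47) and, of 10 neuronal genes, 3 higher and 3 lower, and their part in these differences was not tested. The share of reads on no gene was 16.7% to 19.04% in the aGr1 and 20.9% to 21.5% in the PBS libraries on ethanol, and the antibody and the handling of these libraries cannot be told apart. Without PBS replicate 1, only 4 of the 7 calls were left, since P2ry12, Trem2 and Gfap no longer passed (adjusted p = 0.0561, 0.227 and 0.0726), and without PBS replicate 2 Cd68 did not (adjusted p = 0.179).

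Other genes of the same cells place the 10 in context. In PBS-injected mice none of them passed the test, nor did any of all 24573 genes. An unadjusted p under 0.05 by edgeR's quasi-likelihood test was reached there by 6.39% of all genes. It was reached by 6 of 16 surveillant microglial, 2 of 23 activation, 1 of 11 TREM2 and fractalkine and 6 of 18 complement genes. Among astrocyte genes, 5 of 16 identity and 11 of 25 reactive genes did so. DESeq2 called 2, 0, 0, 0, 1 and 4 in that order. For this list and those that follow, the shares of all genes serve as the measure. With MC903, 7.14% of all genes fell and 5.05% rose in uninjected mice, and 6.79% fell and 4.54% rose in aGr1 mice. Of 16 further genes of surveillant microglia, 13 fell and 1 rose with MC903 in uninjected mice, with a median log2 fold change of -0.77, and 12 fell and 0 rose in aGr1 mice, with a median of -0.43. The calls of 11 genes were shared. Fcrls, an Fc receptor-like gene of microglia, fell most in both (log2 fold change -2.83 ± 0.165, from 12.4 to 17.3 cpm with ethanol to 1.94 to 2.398 cpm with MC903, adjusted p = 1.8e-07 by edgeR's quasi-likelihood test, and -1.70 with aGr1).

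Olfml3 (-1.49 and -0.87 on the log2 scale in uninjected and aGr1 mice), the integrin Itgam (-1.50 and -0.75), the nucleotide receptor P2ry13 (-1.62 and -0.79), the microglial transcription factor Sall1 (-0.74 and -0.37) and the survival receptor Csf1r (-0.66 and -0.28) fell in both. Mertk, a receptor for the uptake of dying cells that astrocytes also make, was the exception. It rose in uninjected mice from 16.1 to 26.7 cpm to 31.9 to 49.5 cpm (log2 fold change 0.85 ± 0.124, adjusted p = 5.4e-04 by edgeR's quasi-likelihood test), was at 0.09 with aGr1, and differed between them (-0.79 ± 0.174, adjusted p = 0.0316). The Mertk difference did not pass with PBS-injected mice as reference, where 0 of 28415 genes did. Between uninjected and aGr1 mice, injection and library handling cannot be told apart.

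Genes that rise in activated microglia moved less. Of 24, 6 fell and 1 rose in uninjected mice (7.14% and 5.05% of all genes). In aGr1 mice 4 fell and 0 rose (6.79% and 4.54% of all genes). The medians were -0.23 and -0.19. The tetraspanin Cd9 (log2 fold change -0.65 ± 0.106 and -0.55 ± 0.0665), the ATP-gated channel P2rx4 (-0.56 and -0.19), the class I light chain B2m (-0.36 and -0.32) and the tetraspanin Cd63 (-0.43 and -0.31) fell in both, and the lysozyme gene Lyz2 fell in uninjected mice (-0.86, adjusted p = 0.0293) and was at 0.20 with aGr1 (adjusted p = 0.677), a difference that did not pass (adjusted p = 0.217 by edgeR's quasi-likelihood test). The 1 gene that rose, the cytokine gene Il1b, was at most 0.263 cpm in the libraries of uninjected mice. In the TREM2 and fractalkine pathways, 5 of 12 genes fell in uninjected mice and 2 of 12 in aGr1 mice, with 0 higher. They included the Trem2 adaptor Tyrobp (-0.75 ± 0.206, adjusted p = 0.0296, and -0.27 with aGr1), the ligand Cx3cl1 (-0.41 ± 0.104, adjusted p = 0.0198, and -0.12 with aGr1) and the sheddases Adam10 (-0.43, and -0.20 with aGr1) and Adam17 (-0.69, and -0.35 with aGr1), by edgeR's quasi-likelihood test. The difference between injections did not pass for Tyrobp, Cx3cl1 or Adam10 (adjusted p = 0.41, 0.333 and 0.431 by the same test).

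Of 18 complement genes, among them Itgam again, 6 fell and 0 rose in uninjected mice, and 5 fell and 1 rose in aGr1 mice. C1qa, a chain of the recognition molecule made by microglia, was at 30.4 to 34.3 cpm with ethanol and 23.1 to 27.1 cpm with MC903 (-0.35 ± 0.0852 on the log2 scale, adjusted p = 0.0156, with -0.29 in aGr1 mice, by edgeR's quasi-likelihood test). C1qc fell in both (-0.43 and -0.35). The regulator Cd55 (-0.79, and -0.41 with aGr1) and the central component C3 (-0.47, and -0.28 with aGr1) passed in uninjected mice and the regulator Cd59a in aGr1 mice (-0.26, and -0.25 without injection), and for none of these 3 did the difference pass (adjusted p = 0.525, 0.777 and 0.894 by edgeR's quasi-likelihood test). In aGr1 mice the anaphylatoxin receptor gene C5ar1 was the 1 that rose.

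Astrocyte genes went both ways. Of 16 identity genes, 7 rose and 2 fell in uninjected mice and 7 rose and 2 fell in aGr1 mice, with medians of 0.17 and 0.15. Angiotensinogen (Agt) rose from 203.8 to 220.8 cpm to 496.8 to 579.1 cpm (1.32 ± 0.0805 on the log2 scale, adjusted p = 2.6e-07, with 1.02 in aGr1 mice, by edgeR's quasi-likelihood test). The glutamate-recycling enzyme Glul (0.68 and 0.47), the gap junction gene Gjb6 (0.76 and 0.48) and the receptor Fgfr3 (0.85 and 0.45) also rose in both, and S100b (-0.38 and -0.45) fell. Aqp4 and Gfap thus fell in libraries in which more astrocyte genes rose than fell.

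The reactive astrocyte list, of which Gfap and Vim are the textbook members, was divided as well. Of its 25 further genes, 6 rose and 4 fell in uninjected mice and 3 rose and 2 fell in aGr1 mice, with medians of 0.08 and 0.03. Fkbp5, a chaperone induced by glucocorticoids, rose from 23.03 to 27.6 cpm to 78.5 to 101.3 cpm (log2 fold change 1.81 ± 0.0733, adjusted p = 1.2e-08 by edgeR's quasi-likelihood test) and by less with aGr1 (0.63, difference -1.21 ± 0.201, adjusted p = 0.0050). The Fkbp5 difference, like that of Mertk, did not pass with PBS-injected mice as reference, where 0 genes did. The protease inhibitor Serpina3n rose in both uninjected and aGr1 mice (0.66 and 0.40), and the interferon-induced Gbp2 fell in both (-1.71 and -1.04). The hyaluronan receptor Cd44 passed in uninjected mice (-0.75, and -0.25 with aGr1), and the filament Nes in aGr1 mice (-0.59, and -0.10 without injection), but neither difference passed (adjusted p = 0.101 and 0.418 by edgeR's quasi-likelihood test). Lcn2, the secreted lipocalin that the study followed in the cord, rose in uninjected mice (1.93 ± 0.297, adjusted p = 7.8e-04) and was at 0.00 ± 0.505 with aGr1, where single libraries reached 60.8 cpm with ethanol. The difference between these Lcn2 effects did not pass (-1.97 ± 0.742, adjusted p = 0.239 by edgeR's quasi-likelihood test). The activity genes Fos and Junb rose in uninjected mice (0.85 and 0.81) and were at 0.40 and 0.05 with aGr1, without passing the test. These values side by side are not a test of the difference between injections, which is not given for these genes.

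**Figure D4:**
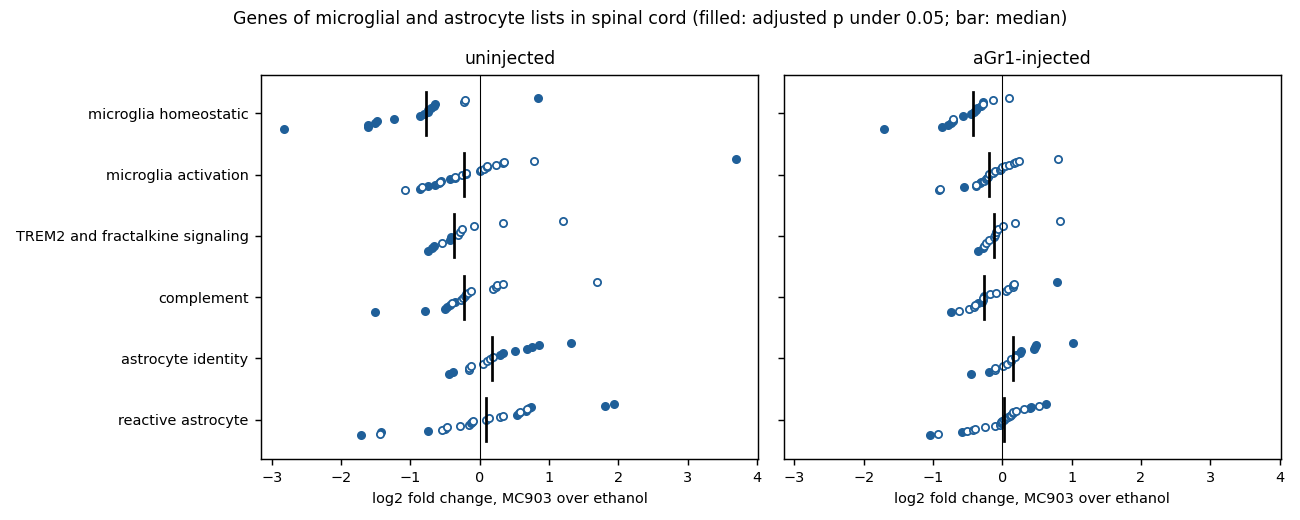
Log2 fold change of MC903 over ethanol in the cord of uninjected and aGr1-injected mice for each gene of 6 lists, with filled points past an adjusted p of 0.05 and a bar at the list median. The surveillant microglia list lies mostly below 0 (medians -0.77 and -0.43), and the astrocyte lists spread to both sides.

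Markers of other cells moved in the same libraries, and their part in the results above was not tested. Their counts stand beside 7.14% of all genes lower and 5.05% higher in uninjected mice, and 6.79% and 4.54% in aGr1 mice. In uninjected mice 7 of 8 meningeal and fibroblast genes fell, with a summed level of 285 to 671 cpm in ethanol and 175 to 236 cpm in MC903 libraries. In oligodendrocytes 6 of 10 genes fell there and 7 of 10 in aGr1 mice, led by Opalin (log2 fold change -2.13 and -1.39). Of 6 endothelial genes 3 fell in uninjected mice and 1 fell and 1 rose in aGr1 mice, of 5 oligodendrocyte precursor genes 2 and 1 fell, of 6 Schwann cell genes 2 and 1 fell, and of 6 satellite glial genes 2 fell and 1 rose in each. Of 10 genes of monocytes and border macrophages, Pf4 fell in uninjected mice (-2.73, and -0.45 with aGr1). The 5 erythrocyte genes had medians of -0.89 and -0.62 and the 8 sensory neuron genes tested medians of 0.10 and 0.03, with no call in either. Counted at an unadjusted p under 0.05 by edgeR's quasi-likelihood test, 5 and 0 of the 5 erythrocyte genes were below it. For the 8 sensory neuron genes the counts were 1 and 1, beside 25.6% and 24.6% of all genes. DESeq2 called 0 and 0 of the erythrocyte genes and 1 and 0 of the sensory neuron genes. Neuronal genes did not pass the test in either (0 of 10 and 0 of 10 by edgeR's quasi-likelihood test, with 1 and 4 at an unadjusted p under 0.05, beside 25.6% and 24.6% of all genes, and 1 and 0 called by DESeq2), and their summed level was 4063 to 4492 cpm in ethanol and 4202 to 4642 cpm in MC903 libraries of uninjected mice. In aGr1 mice 3 of 10 neutrophil genes rose (1 of 10 in uninjected mice), with a summed level of 39.3 to 143 cpm in ethanol and 71.8 to 434 cpm in MC903 libraries, and 2 of 8 meningeal genes fell.

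Trigeminal ganglia, outside the central nervous system, were the reference tissue, and few tests passed there, for the 10 genes as for all genes. Over 8 comparisons of MC903 with ethanol, 4 of 80 tests passed the adjusted p of 0.1 used for TG. By comparison, 0.0% to 3.36% of all genes did. Fitted values of members that did not pass still reached 2.14 on the log2 scale, at day 1. In PBS-injected mice at day 8, 2 of 10 passed, both higher, against 3.36% of all genes. C4b was at 63.3, 45.8 and 47 cpm in the 3 ethanol libraries and at 74.6 to 93.2 cpm in the 4 MC903 libraries (log2 fold change 0.64 ± 0.104, adjusted p = 0.00669 by edgeR's quasi-likelihood test). Vim was at 324 to 349 against 359 to 396 cpm (0.19 ± 0.0497, adjusted p = 0.0719), a call lost without MC903 replicate 1 or 3 or any ethanol replicate. Gfap, at 0.30, passed only without MC903 replicate 4, where 15.5% of all genes did.

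In aGr1-injected mice at day 8, 2 of 10 passed, both lower, against 1.88% of all genes, and all 10 fitted values were below 0. Aif1 ran from 2.67 to 3.62 cpm with ethanol and from 0.947 to 1.91 cpm with MC903 (log2 fold change -0.95 ± 0.230, adjusted p = 0.0729 by edgeR's quasi-likelihood test), and Cx3cr1 from 15.3 to 26.04 cpm and from 4.73 to 14.3 cpm (-1.01 ± 0.261, adjusted p = 0.0972). In the TG these genes are usually assigned to resident macrophages, but which cells carried them here was not tested. Gfap ran from 61.3 to 199.6 cpm with ethanol and from 4.02 to 218 cpm with MC903 in the same libraries. Aqp4 ran from 23.8 to 64.9 cpm and from 11.9 to 53.4 cpm. Of 10 genes of monocytes and border macrophages, 3 were higher and 1 lower in the same comparison, of 8 meningeal genes 4 were lower (summed level 1083 to 1561 cpm with ethanol and 684.4 to 1106 cpm with MC903), and of 5 erythrocyte genes 2 were higher, and their part in the result was not tested. Both calls were fragile to single libraries (adjusted p up to 0.258 for Aif1 and 0.287 for Cx3cr1). Of the 8 libraries, only MC903 replicate 3 and ethanol replicate 2 could be dropped with Aif1 still called, and only MC903 replicate 1 and ethanol replicate 2 with Cx3cr1 still called.

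No member passed at any other TG time point by edgeR's quasi-likelihood test (0 of 10 in each). In TSLPR KO mice at day 12, where replicate numbers paired the libraries, a fit blocked on them called Tmem119 as higher (0.79, adjusted p = 0.0591 by the same test), beside 1.37% of all genes, against 0.75 and an adjusted p of 0.629 without the block, where the groups overlapped. All genes passed at a rate of 0.0% at day 1, 0.0% at day 2, 0.00823% at day 5 and 0.16% at day 8 in uninjected wild-type mice, and of 0.0% at day 8 and 0.304% at day 12 in TSLPR KO mice. At an unadjusted p under 0.05 the counts were 4, 1, 1, 1, 3 and 2 of 10 in that order, beside 8.03%, 6.34%, 3.86%, 6.98%, 8.06% and 7.22% of all genes, and DESeq2 called 2, 0, 0, 0, 2 and 0. The members that DESeq2 called at day 1 and in TSLPR KO mice at day 8 were Gfap and Aqp4 in both, in opposite directions. At day 1 they were higher with MC903, Gfap at 15.3 to 85.2 cpm in ethanol and 111.9 to 425.4 cpm in MC903 libraries and Aqp4 at 17.8 to 77.7 and 77.8 to 323.1 cpm. Mog, a gene of central myelin, was at 1.39 to 35.7 cpm in the day 1 ethanol libraries and at 21.6 to 148.9 cpm in the day 1 MC903 libraries, and its part in the Gfap and Aqp4 values was not tested. In TSLPR KO mice they were lower, Gfap at 28.3 and 58.05 cpm with ethanol and 19.6 and 14.9 cpm with MC903, and Aqp4 at 35.1 and 51.3 against 11.2 and 13.7 cpm. MC903 replicate 1 of these mice stood apart, with 19.03% of reads on no gene and 13.19% ambiguous, where the other 3 libraries had at most 12.6% and 2.395%. In fits that left 1 arm with a single library, assumed to vary as the other arm does, Vim passed at day 2 without ethanol replicate 2, beside 20.8% of all genes, and Aqp4 in TSLPR KO mice at day 8 without MC903 replicate 2, beside 3.67% of all genes. In the day 8 TG of uninjected wild-type mice the 10 fitted values ran from -0.52 (P2ry12) to 0.48 (Gfap).

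**Figure D5:**
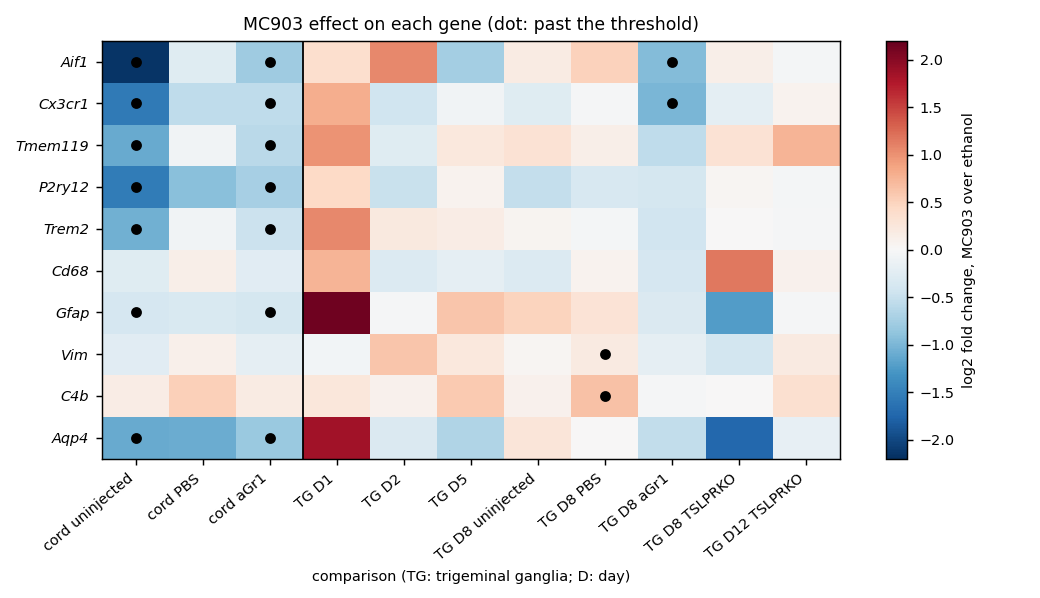
Log2 fold change of MC903 over ethanol as color for the 10 genes in the 3 cord and 8 TG comparisons, with a dot where the gene passed the threshold of its tissue. The dots gather in the uninjected and aGr1 cord columns, with 7 each, and number 4 in the TG.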

How the data were processed

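The deposited values are raw counts per Ensembl gene for each library, which the authors made from poly(A)-selected, single-end reads mapped to mm10 with Bowtie2 and TopHat and assigned with htseq-count (versions, annotation release and strand setting are not given in the sources used here). Reads on no gene and ambiguous reads were left out of totals, and were 9.42% to 21.5% (no gene) in cord. Symbols and coordinates came from GENCODE M21 (GRCm38), which matched 45143 of 46078 identifiers. The 10 genes and the gene lists were chosen with earlier results of these data known.

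Levels (cpm) are counts scaled to a library total of 1000000 over genes, and per-length levels divide by the union of annotated exons. Each comparison was fitted on its own libraries by the quasi-likelihood test of edgeR (version 4.0.16, R 4.3.3, TMM factors), keeping genes whose counts over those libraries summed to 10 or more, adjusted over all genes tested by Benjamini-Hochberg, at 0.05 in cord and 0.1 in TG as in the study's methods, which used DESeq. The comparison of MC903 with ethanol in day 8 TG of uninjected mice had a term for label cohort, and the comparison of cord with TG did not. All 10 genes passed the count filter in every comparison. Genes of other lists were named by rule, up to 4 with the smallest p per list and comparison among those past the threshold, plus Lcn2, Fos and Junb. Il1b, Tyrobp, C5ar1 and C4a are outside the rule and were named after their values were seen. The scripts were tested on simulated counts.

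Same-numbered libraries deviated together (every pair's correlation across genes over 0.1) in TG at day 5 (0.187 to 0.406) and in TSLPR KO TG at day 12 (0.241 to 0.640), on numbers taken from the labels. With the replicate block, 54 genes and no member passed at day 5 and 356 genes and 1 member at day 12.

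Alternatives were RLE size factors, library totals, DESeq2 1.42.0, filterByExpr, no filter, the replicate block, leaving out each library, 1 fit over all cords, PBS or averaged reference groups, and the cohorts apart. A crossed pairing was added after seeing the data.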

Additional observations from a re-analysis of the deposited data

Results flagged for a closer look

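In groups of 4 to 10 libraries, the 10 genes gave 130 combinations of gene and group, and in 9 of them the highest or lowest library stood farther from its neighbor than Dixon's 95% limit allows. Chance alone gives about 1 in 20. Of these 9, 3 fell on 1 library, ethanol replicate 1 of the uninjected cords, which held 0.910 cpm of Aif1 (2.49 to 2.79 in the others), 14.6 cpm of Trem2 (8.44 to 9.75) and 1160 cpm of Gfap (1540 to 1680). Vim was 78.2 cpm in MC903 replicate 2 of the uninjected cords (84.5 to 84.9 in the others) and 111 cpm in MC903 replicate 6 of the aGr1 cords (58.7 to 82.7). In the TG, Aif1 was 0.0586 cpm in ethanol cohort B replicate 2 at day 8 (0.737 to 0.827) and 0.314 cpm in MC903 cohort A replicate 1 (0.782 to 0.911), Cd68 was 1.47 cpm in MC903 replicate 2 of the aGr1 mice (3.02 to 3.33), and Trem2 was 3.3 cpm in MC903 replicate 2 of the TSLPR KO mice at day 12 (1.92 to 2.06).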

How the results depend on the processing

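The count of members past the threshold in either direction, 7 in the uninjected and in the aGr1 cord, stayed between 6 and 8 when any library was left out. The gene gained was Vim, as lower, in the uninjected cord and C4b, as higher, in the aGr1 cord. In these fits 7.49% to 19.5% of all genes passed in the uninjected cord and 9.05% to 13.8% in the aGr1 cord. Of the other alternatives in these cords, the replicate block took away 1 member call, Gfap in uninjected mice (-0.36, adjusted p = 0.0759 by edgeR's quasi-likelihood test), and in aGr1 mice none changed a member call. Depth limits Aif1 most, with 3 counts in its lowest cord library. The cause of the changes below was not tested.

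Counts of all genes past the threshold moved as follows. With 1 fit over all cords they were 5668 (uninjected), 180 (PBS) and 1834 (aGr1), with 1 member called in PBS mice. With DESeq2 they were 174 (PBS, 1 member), 471 (difference between aGr1 and uninjected, 1 member), and in TG 77 (day 1, 2 members), 63 (day 2), 42 (day 5), 211 (day 8), 857 (aGr1, 1 member), 197 (TSLPR KO day 8, 2 members) and 266 (TSLPR KO day 12). Without a filter they were 80 (PBS cord), 177 (TG day 2), 30 (day 5), 493 (TG day 8), 1271 (TG PBS) and 1063 (TSLPR KO day 8, 2 members), and with filterByExpr 0 at TG day 5, with 1 member in the aGr1 TG. Day 8 TG gave 63 in cohort A, 1 in cohort B and 5 without the cohort term.

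With the replicate block they were 1747 (uninjected cord), 224 (PBS cord, 2 members), 1992 (aGr1 cord), 62 (the difference), 16 (TG day 2), 54 (day 5), 3479 (TG PBS, 4 members), 480 (TSLPR KO day 8, 2 members) and 356 (TSLPR KO day 12, 1 member). The numbers paired the libraries only at TG day 5 and in TSLPR KO mice at day 12; in the uninjected cord the correlation of same-numbered libraries ran from -0.179 to 0.017, and in the aGr1 cord from -0.184 to 0.286. In the PBS cord it was -0.475, and the crossed pairing, added after seeing the data, called 955 genes and 4 members.

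The difference between aGr1 and uninjected mice changed sign with PBS mice as reference for Aif1 (-0.53), Cx3cr1 (-0.014), Tmem119 (-0.52), Trem2 (-0.40) and Vim (-0.31), where 0 genes passed, and with both references averaged for Tmem119 (-0.024) and Vim (-0.14), where 5 genes passed. It was 0.002, 0.014 and 0.012 for Cd68 under RLE factors, filterByExpr and library totals, and 0.01, 0.01, 0.022 and 0.023 for C4b under DESeq2, RLE factors, filterByExpr and library totals.

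Leaving out each library gave 1887 to 4960 genes (uninjected cord), 93 to 6075 with 0 to 6 members (PBS cord), 55 to 416 with 0 to 2 members (the difference), 2704 to 7887 with 4 to 7 members (ethanol, aGr1 against PBS), and in TG 0 to 4899 with 0 to 1 members (day 2), 0 to 33 (day 5), 5 to 71 (day 8), 246 to 3602 with 1 to 3 members (PBS), 161 to 463 with 0 to 2 members (aGr1), 0 to 832 with 0 to 1 members (TSLPR KO day 8) and 31 to 95 (TSLPR KO day 12). In the PBS cord, Trem2 ran from -0.185 to 0.019, Cd68 from -0.51 to 0.58 and Vim from -0.06 to 0.29. In the difference, Cd68 ran from -0.127 to 0.041, Gfap from -0.125 to 0.045, Vim from -0.061 to 0.146 and C4b from -0.067 to 0.078.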
